A study of Homo sapiens with 10 samples.

Results

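The RNAs described here are those encoded by the human mitochondrial genome, measured in input RNA of A549 cells and of their cisplatin-resistant derivative A549/DDP. All genes whose symbol starts with MT- were taken, which gave 37 of the 58037 genes in the count tables: 13 protein-coding genes, 2 ribosomal RNA genes and 22 transfer RNA genes. Their deposited lengths equalled those of the RefSeq annotation of GRCh38.p14 for 37 of 37 genes. Of these 37 genes, 15 had counts in each of the 6 input libraries, namely the 13 protein-coding and the 2 rRNA genes.

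The mitochondrial genome is a small circular DNA that is transcribed from both strands as long precursors. These are cut at the tRNAs that lie between most of the other genes, and the released mRNAs and rRNAs receive short poly(A) tails. The mRNAs encode core subunits of respiratory complexes I, III, IV and V, which work together with many subunits encoded in the nucleus, and the rRNAs build the mitochondrial ribosome. In most cells mitochondrial RNA is an abundant part of all RNA with a tail.

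A549 is a human lung adenocarcinoma line, and both lines were grown in the same serum-containing medium to at most 10 passages by the labels. For m6A-seq, RNA fragments were pulled down with an antibody against N6-methyladenosine, and the inputs are fragments that were not pulled down. There were 2 A549 inputs, 2 A549/DDP inputs, 2 m6A-seq libraries of each line, and a second pair of A549 inputs whose titles differ from the first only by a full stop and name no experiment. The study's methods describe inputs for both m6A-seq and RIP-seq, a sequencing of RNA bound to an immunoprecipitated protein, and the labels do not say to which of them the second pair belongs. The A549/DDP inputs carry the resistant state in their titles and cell type, although their source is labelled A549. Nothing in the labels says whether replicates came from separate cultures, so p-values measure only the spread between these libraries.

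The first pair held 35286514 and 34570074 counts, the A549/DDP inputs 29225501 and 33971561, and the second pair only 855034 and 982036. The epithelial keratins KRT7, KRT8 and KRT18 were found in all 6 inputs at 62.0 to 6959 CPM, counts scaled to library size, while the other epithelial markers EPCAM and KRT19 lay at or below 5.81 and 42.1 CPM. Of 6 markers of other cell types, PTPRC, CD3E, PECAM1 and CDH5 were at or below 0.434 CPM, COL1A1 ranged from 0 to 18.0 CPM and ALB from 0 to 131 CPM. Over the 15 measured mitochondrial genes, the chi-square of the 2 libraries of a pair was divided by its degrees of freedom. It was 9.27 in A549, 3.42 in A549/DDP and 118 in the second pair, all above the value of about 1 that counting noise gives. This ratio grows with the number of mitochondrial counts, which was largest in the second pair, so it does not rank the pairs. In bulk libraries, fewer cells of a type and less RNA per cell cannot be told apart.

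Mitochondrial RNA was a very small part of the A549 and A549/DDP inputs and most of the second A549 pair. In the A549 inputs 12797 and 18916 counts fell on mitochondrial genes, which were 0.0363% (95% Wilson interval 0.0356% to 0.0369%) and 0.0547% (0.0539% to 0.0555%) of each library. In the A549/DDP inputs 13040 and 17028 counts made up 0.0446% and 0.0501%. Both A549/DDP shares lay between the A549 shares. Their mean exceeded that of A549 by 0.00188 percentage points, at an SD (n = 2) of 0.0130 in A549 and 0.00389 in A549/DDP (two-sided exact permutation test, p = 1). In the second pair, by contrast, 643235 and 725972 counts fell on mitochondrial genes, or 75.2% and 73.9%. The mean share was 1639 times that of the first pair, and all libraries of the second pair lay above all of the first. With 2 libraries against 2 the smallest p that the exact permutation test allows is 0.333, which was the p obtained. Intervals cover counting error only.

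**Figure D1:**
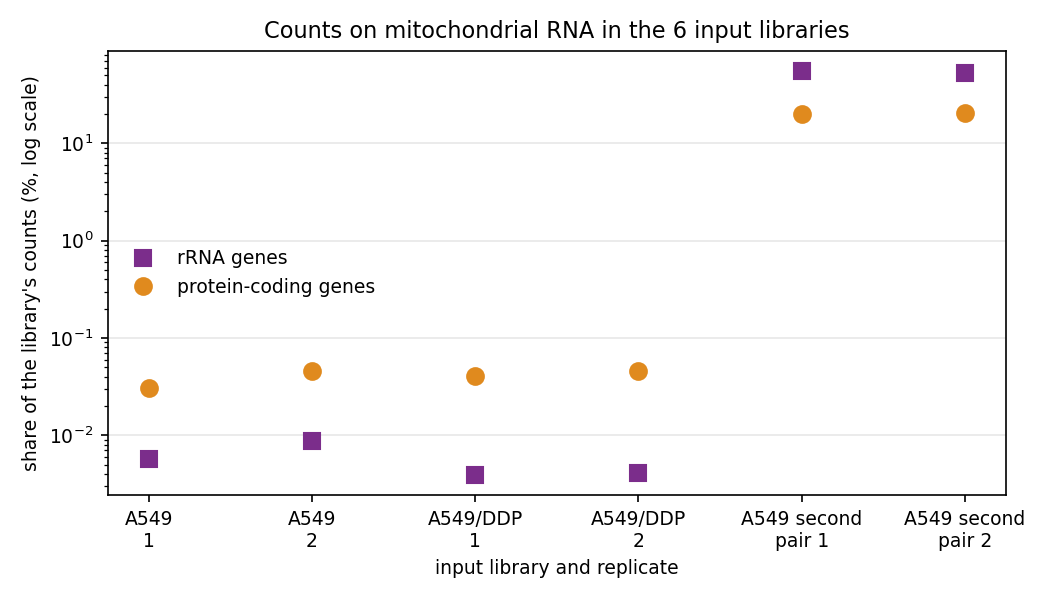
Share of all counts in each input library (vertical axis, percent, log scale) that fell on the 2 mitochondrial rRNA genes (squares) and the 13 protein-coding genes (circles); each point is 1 library. In A549 and A549/DDP the protein-coding genes lie above the rRNA genes and all shares are below 0.1%, while in the second pair the rRNA genes lie above the protein-coding genes, at 55.4% and 53.3%.

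By class, the pairs differed in the balance of rRNA and mRNA. The 13 protein-coding genes held 0.0306% and 0.0461% of all counts in A549, 0.0407% and 0.0461% in A549/DDP, and 19.8% and 20.7% in the second pair. The 2 rRNA genes held 0.00564% and 0.00864% in A549, 0.00389% and 0.00407% in A549/DDP, and 55.4% and 53.3% in the second pair. As a part of mitochondrial counts alone, the rRNA genes took 15.6% and 15.8% in A549, 8.73% and 8.13% in A549/DDP and 73.7% and 72.0% in the second pair. No 2 pairs overlapped in this share. It was lower in A549/DDP than in A549 by 7.25 percentage points, with an SD of 0.174 in A549 and 0.424 in A549/DDP, and it was higher in the second pair by 57.2 points. The exact permutation p was 0.333 for both differences, the smallest it can give. The sum of rRNA counts per mRNA count was 0.186 ± 0.00245 (SD, n = 2) in A549, 0.0920 ± 0.00505 in A549/DDP and 2.69 ± 0.157 in the second pair.

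Of the rRNAs, only the large-subunit rRNA, MT-RNR2 (1671 to 3229 of the mitochondrial genome, GRCh38), was lower in A549/DDP than in A549. It had 1882 and 2852 counts in the A549 inputs and 1022 and 1239 in A549/DDP. Scaled by TMM, edgeR's correction for library size and composition, these were 57.2 and 80.5 CPM in A549 and 34.5 and 35.5 CPM in A549/DDP, so the lines did not overlap. The log2 fold change was -0.98 ± 0.25 (SE). By edgeR's quasi-likelihood test the adjusted p was 0.0503, just outside the threshold of 0.05. The small-subunit rRNA, MT-RNR1 (648 to 1601), had 108 and 136 counts in A549 and 116 and 145 in A549/DDP, a log2 fold change of 0.18 ± 0.84 (adjusted p = 0.923). The ratio of MT-RNR2 to MT-RNR1 counts was 17.4 and 21.0 in A549 and 8.81 and 8.54 in A549/DDP, with no overlap.

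The call of MT-RNR2 changed with the processing. It passed with DESeq2 (adjusted p = 0.0131), with at least 10 counts in every library (0.0189), without a filter (0.0022) and without A549 replicate 1 (0.0016), and missed the threshold without any of the other 3 libraries (0.122 to 0.145) and with limma on log2(TPM + 1) (0.122). Over the alternatives within these 4 libraries the adjusted p ran from 0.0016 to 0.145. With the replicate number as a block its adjusted p was 0.0189 (edgeR), although the numbers were not found to pair the libraries. RNA without a poly(A) tail also differed between these inputs: the summed counts of the 13 genes of that kind found in the tables were 0.00682% and 0.00588% of counts outside the mitochondrial genome in A549, and 0.0149% and 0.0193% in A549/DDP. Of the 9 such genes that were tested 2 passed (22.2%, beside 14.9% of all tested genes), RN7SL1 and RN7SL2. The histone gene H2AC6 lay the other way, at 30.8 and 32.1 against 16.0 and 8.86 CPM (log2 fold change -1.40 ± 0.39, edgeR, adjusted p = 0.0640). The largest of them, RN7SL2, the RNA of the signal recognition particle, held 0.00101% and 0.000898% in A549 against 0.00553% and 0.00856% in A549/DDP. The part of such RNA in the lower MT-RNR2 level was not tested.

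None of the 15 measured mitochondrial genes passed the test between A549/DDP and A549, while 14.9% of the 16406 genes tested did (1124 higher and 1313 lower in A549/DDP). Of the 15, 1 had an unadjusted p under 0.05, MT-RNR2, beside 32.7% of all tested genes. With DESeq2 MT-RNR2 was also the 1 gene of the 15 that passed, beside 17.7% of all genes tested there. Of the 15 log2 fold changes 8 were above 0 and 7 below, with a median of 0.01, beside a median of -0.00159 over all tested genes. The groups did not overlap for 6 of the 15 genes, with MT-CYB, MT-ND5, MT-ND1 and MT-RNR1 higher and MT-RNR2 and MT-ATP8 lower in A549/DDP, beside 62.4% of all tested genes. With each library scaled to its mitochondrial total, again 0 of 15 passed, beside 6.12% of all tested genes. There MT-RNR2 had a log2 fold change of -0.98 (edgeR, adjusted p = 0.114).

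**Figure D2:**
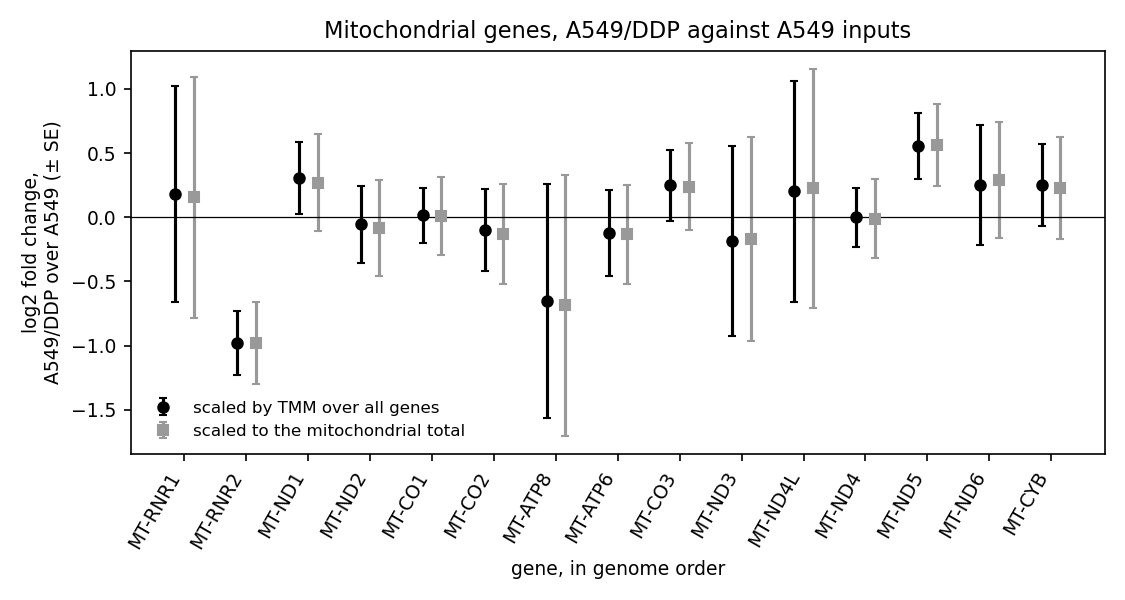
Log2 fold change of A549/DDP over A549 (vertical axis, ± SE from edgeR) for the 15 measured mitochondrial genes in genome order, with 2 libraries per line, scaled by TMM over all genes (black circles) or to the mitochondrial total (grey squares). MT-RNR2 lies lowest, at -0.98 under both scalings, and MT-ND5 highest, at 0.55 and 0.56.

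Complex I mRNAs were the largest group of mitochondrial mRNA in both lines. The 7 genes of complex I, which oxidizes NADH, held 47.5% and 49.2% of mitochondrial mRNA counts in A549 and 51.7% and 51.2% in A549/DDP. The higher share went with MT-ND5 (12337 to 14148), a proton-pumping subunit of that complex. MT-ND5 had 1263 and 2067 counts in A549 and 2123 and 2457 in A549/DDP, which were 38.4 and 58.3 against 71.6 and 70.4 TMM-scaled CPM. Its log2 fold change was 0.55 ± 0.26 (edgeR, adjusted p = 0.200), and over the alternatives within these 4 libraries it passed once, without A549 replicate 2 (0.0305). Its share of mitochondrial mRNA was 11.7% and 13.0% in A549 and 17.8% and 15.7% in A549/DDP, with no overlap (exact permutation p = 0.333, the smallest possible).

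The other complex I members showed smaller differences or a wide spread. MT-ND4 (10760 to 12137), the second most abundant mRNA by count in A549, had 55.9 and 76.9 CPM in A549 and 62.5 and 70.2 in A549/DDP, so that both A549/DDP libraries lay within the A549 range. MT-ND1 had 22.3 and 24.2 CPM against 26.6 and 30.9 (log2 fold change 0.31 ± 0.28). MT-ND2 (23.3 and 27.6 against 21.8 and 27.2 CPM), MT-ND3 (3.86 and 7.25 against 4.12 and 5.65) and MT-ND4L (2.55 and 4.91 against 3.74 and 4.84) overlapped between the lines. MT-ND6 (14149 to 14673) is the only mitochondrial mRNA encoded on the opposite strand, and it spread widely within A549, at 9.85 and 21.9 CPM, around the 17.3 and 20.5 CPM of A549/DDP. The labels describe strand-specific libraries, but the strand setting used in counting is not given in the sources used here, so that reads of MT-ND6 and of RNA antisense to it cannot be told apart.

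The mRNAs of complex IV, which reduces oxygen, held 40.5% and 39.6% of mitochondrial mRNA counts in A549 and 37.7% and 38.1% in A549/DDP. MT-CO1 (5904 to 7445), its catalytic core subunit, was the most abundant mRNA in both lines, at 84.2 and 116 CPM in A549 and 97.5 and 105 in A549/DDP (log2 fold change 0.01 ± 0.22). MT-CO2 had 20.9 and 24.5 against 18.7 and 23.7 CPM, and MT-CO3 27.8 and 37.6 against 35.3 and 42.6. All 3 overlapped between the lines. MT-CYB, cytochrome b of complex III, had 16.7 and 20.1 CPM in A549 and 21.2 and 22.6 in A549/DDP, a log2 fold change of 0.25 ± 0.32 (edgeR, adjusted p = 0.672).

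The complex V mRNAs encode membrane subunits of the ATP synthase, and they share bases, since the 3′ end of MT-ATP8 overlaps the start of MT-ATP6 by 46 bases, so that their split into genes is uncertain. Together they held 6.91% and 6.72% of mitochondrial mRNA in A549 and 5.27% and 5.61% in A549/DDP. With the nuclear copy MTATP6P1 added, replicate 2 of both lines lay almost level. Replicate 1 stayed apart, at 8.83% in A549 and 6.65% in A549/DDP. MT-ATP8 had 127 and 150 counts in A549 and 75 and 91 in A549/DDP, or 3.86 and 4.23 against 2.53 and 2.61 CPM, without overlap but with a log2 fold change of -0.65 ± 0.91 (edgeR, adjusted p = 0.702). MT-ATP6 had 18.8 and 26.0 against 18.6 and 22.5 CPM. MT-ND4L and MT-ND4 overlap by 7 bases.

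Per length, the levels of the 15 genes spanned a wide range in A549. On the scale of CPM per kb of transcript, MT-CO1 was highest at 50.9 and 77.0, followed by MT-ND4 at 37.8 and 57.2, MT-RNR2 at 34.2 and 52.9 and MT-CO3 at 33.1 and 49.2, neighbours whose ranges overlapped. MT-ND4L (8.02 and 16.9) and MT-ND3 (10.4 and 21.5) stood near the low end, and MT-RNR1 was lowest in each library at 3.21 and 4.12, below all 13 mRNAs. In A549/DDP MT-CO1 was again highest (64.1 and 69.7) and MT-RNR1 lowest (4.16 and 4.47). MT-RNR2, at 22.4 and 23.4, was below 8 of the other genes in A549/DDP replicate 1, and below only MT-CO1 and MT-ND4 in A549 replicate 1.

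**Figure D3:**
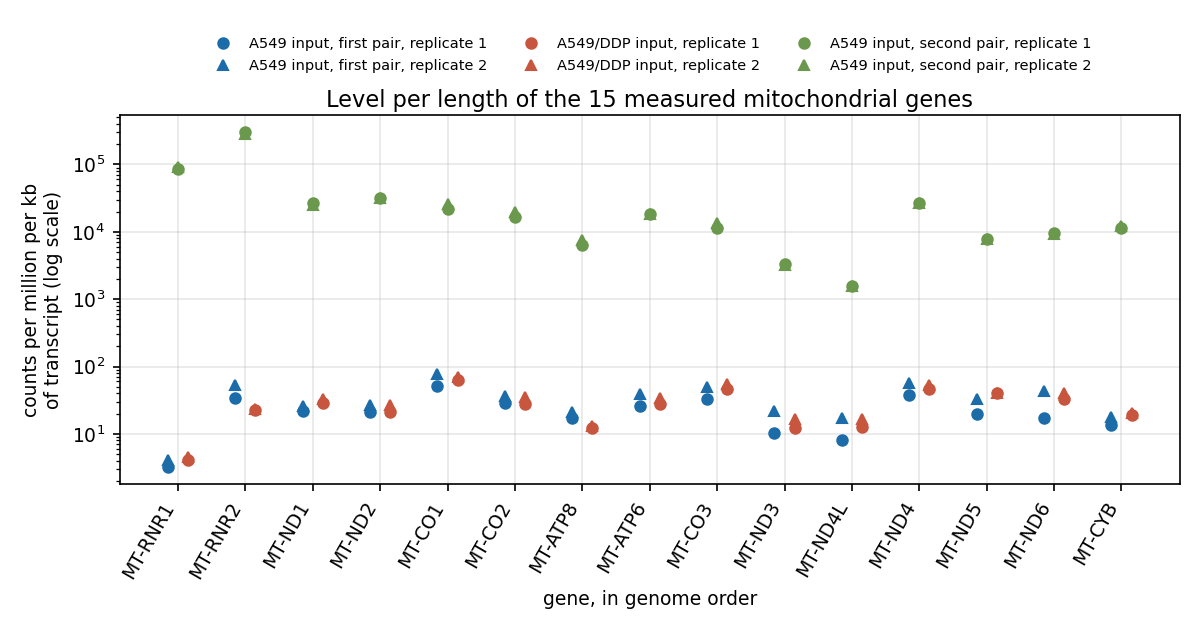
Level of each of the 15 measured mitochondrial genes as CPM per kb of transcript (vertical axis, log scale), in genome order, with 1 point for each input library (circles replicate 1, triangles replicate 2). A549 and A549/DDP libraries lie between 3.21 and 77.0 for every gene, and the second A549 pair lies between 1555 and 303070.

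In the second A549 pair, all 15 measured genes were higher than in the first pair, and the rRNAs rose by far more than the mRNAs. This comparison sets libraries of the same line beside each other, whose labels agree but which may be inputs of different experiments. All 15 passed in edgeR's test, beside 13.8% of the 14258 genes tested and 6.45% that passed in the higher direction. The log2 fold changes ran from 10.09 ± 0.40 for MT-ND4L to 17.67 ± 0.51 for MT-RNR1, with a median of 12.24, while the median of all tested genes was -0.65 under this scaling. MT-RNR2 reached 403992 and 436756 counts and was the gene with most counts in both libraries, where its rank had been 4005 and 2859 in the first pair. Its log2 fold change was 15.84 ± 0.54. MT-RNR1 had 69914 and 86236 counts against 108 and 136, and its share of mitochondrial counts went from 0.844% and 0.719% to 10.9% and 11.9%. The ratio of MT-RNR2 to MT-RNR1 was 5.78 and 5.06, below the 17.4 and 21.0 of the first pair.

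**Figure D4:**
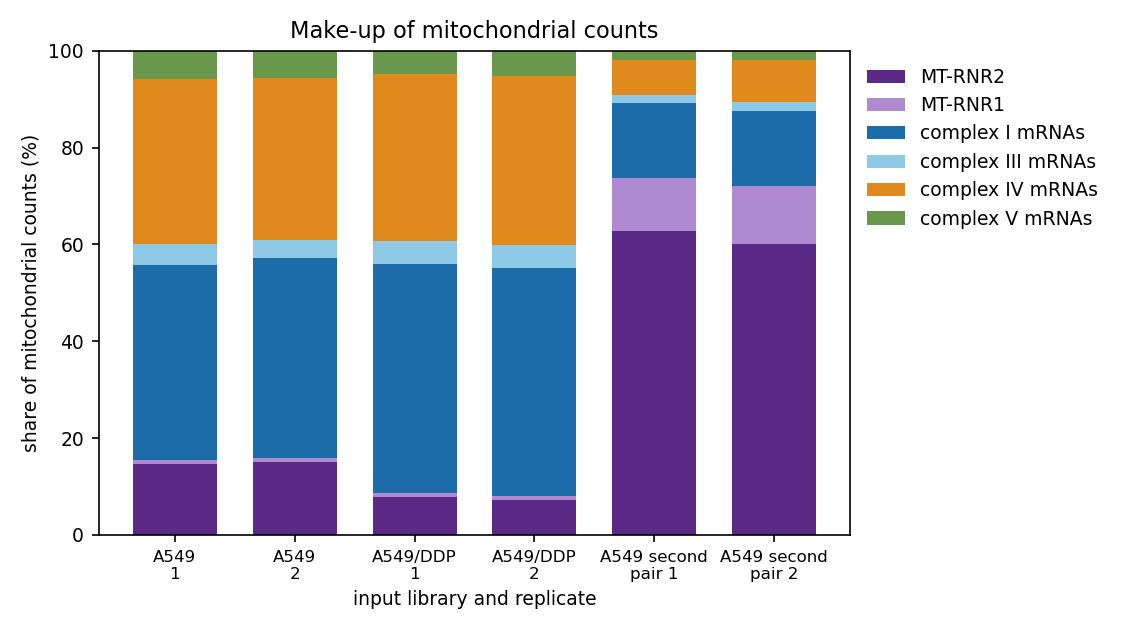
Make-up of mitochondrial counts in each input library (vertical axis, percent of mitochondrial counts, stacked to 100), split into the 2 rRNAs and the mRNAs of each respiratory complex. MT-RNR2 takes 14.7% and 15.1% in A549, 7.84% and 7.28% in A549/DDP and 62.8% and 60.2% in the second pair.

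Within mitochondrial RNA the second pair had relatively more rRNA and less of most mRNAs. With each library scaled to its mitochondrial total, 13 of the 15 genes passed in edgeR, beside 99.9% of all tested genes, which this scaling shifts to a median of -13.93. The 2 rRNAs were higher, by 3.87 for MT-RNR1 and 2.05 for MT-RNR2 on the log2 scale. The 11 mRNAs that passed were lower, from -1.17 for MT-CYB to -3.66 for MT-ND4L. MT-ND1 (-0.63 ± 0.51) and MT-ND2 (-0.32 ± 0.50) did not pass.

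The mRNAs also changed in relation to each other. As shares of mitochondrial mRNA, MT-ND1 went from 6.80% and 5.38% in the first pair to 12.9% and 11.6%, and MT-ND2 from 7.09% and 6.14% to 16.9% and 16.0%. They are the first mRNA genes after the rRNA genes in the genome, with only tRNA genes between. MT-CO1 went from 25.6% and 25.8% to 17.3% and 19.3%, and MT-ND5 from 11.7% and 13.0% to 7.10% and 6.85%. MT-CO3 went from 8.48% and 8.37% to 4.54% and 5.12%. None of these 5 genes overlapped between the pairs. Scaled to the total of the 13 mRNA genes, 4 mRNAs passed in edgeR: MT-ND2 (log2 fold change 1.31 ± 0.49, adjusted p = 0.0077) and MT-ND1 (1.01 ± 0.49, 0.0395) higher, and MT-ND4L (-2.02 ± 0.78, 0.0092) and MT-ND3 (-1.34 ± 0.66, 0.0437) lower. Under this scaling 99.8% of all tested genes passed, with a median log2 fold change of -12.32.

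Several features of the libraries moved with this difference. The mean fragment length implied by the tables was 110 and 127 bases in the first pair, 120 and 133 in A549/DDP, and 247 and 241 in the second pair. Outside the mitochondrial genome the second pair held 211799 and 256064 counts, and it detected 9502 and 10143 genes against 19263 and 17392. RNA without a poly(A) tail was 1.60% and 2.00% of its counts outside the mitochondrial genome, against 0.00682% and 0.00588%, and RN7SL2 alone was 1.50% and 1.88%. Of that list RN7SL1, RN7SK and RMRP were at 0 in both libraries of the second pair. The part of these features in the difference was not tested, and the experiment of the second pair cannot be told apart from any of them.

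Short mRNAs depend strongly on how length is corrected. The deposited TPM divides by an effective length, an estimate of how many positions in a transcript a fragment can start from. For the longest genes it equalled the transcript length less the mean fragment length plus 1 base, and for the shortest genes it was larger than that. For MT-ATP8, with 207 bases, this was 98.1 and 81.3 bases in the first pair but 10.7 and 12.3 in the second. MT-ATP8 therefore had 84155 and 84666 TPM in the second pair, more than the 18070 and 20279 TPM of MT-CO1, although it had 1122 and 1540 counts against 29221 and 39164. In the first pair MT-ATP8 had 56.9 and 85.8 TPM and MT-CO1 85.0 and 135. By TPM the mitochondrial share of the second pair was 59.4% and 57.1%, and its rRNA share of mitochondrial RNA exceeded that of the first pair by 44.4 percentage points instead of 57.2.

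**Figure D5:**
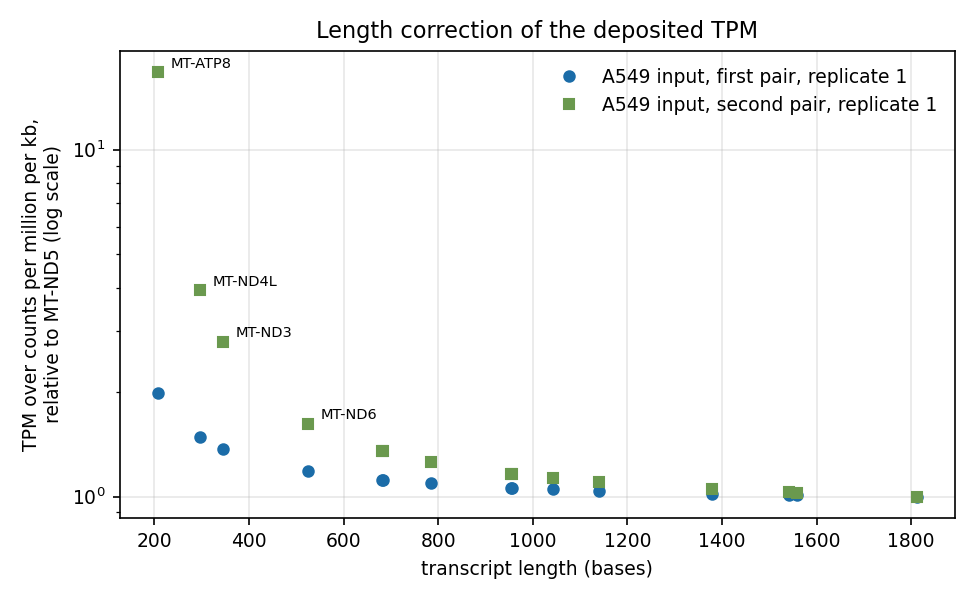
Ratio of deposited TPM to CPM per kb, relative to the ratio of MT-ND5 (vertical axis, log scale), against transcript length in bases for the 15 measured mitochondrial genes in replicate 1 of each A549 pair. MT-ATP8 lies at 1.98 in the first pair and at 16.7 in the second, and the longest genes lie near 1 in both.

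The 22 tRNA genes, of 59 to 75 bases, could not be measured in these tables. All 22 had an effective length of 0 in every input, and 21 had 0 counts in all 6. MT-TV, the tRNA for valine, had 1 count in replicate 2 of the second pair. These zeros therefore set no upper limit on the tRNA levels. The same held for short genes elsewhere, since of 1801 genes with an effective length of 0 in every input only 11 had any count.

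Copies of mitochondrial DNA in the nuclear genome took few counts beside the library totals, but 1 copy was large beside its mitochondrial counterpart. The count tables list 399 such genes, and 24 of them had a count in any input. MTATP6P1, a copy of MT-ATP6 on chromosome 1, was the single one with a mean of at least 100 counts, at 228 and 222 in the first pair, 176 and 405 in A549/DDP and 1469 and 1713 in the second pair. The MTRNR2L copies of the large rRNA were at 0 in all 6 inputs. With all nuclear copies added, the mitochondrial share was 0.0373% and 0.0557% in A549. Of the counts on MTATP6P1 and MT-ATP6 together, the copy held 26.9% and 19.4% in A549, 24.2% and 34.0% in A549/DDP and 11.9% and 12.3% in the second pair, so that the levels of both are uncertain. With the copy added to the complex V mRNAs, these held 8.83% and 8.0% of mitochondrial mRNA in A549 and 6.65% and 7.99% in A549/DDP. The lines did not overlap, but the higher A549/DDP value lay just below the lower A549 value.

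Nuclear genes for the same complexes were compared in the same test. Of 74 nuclear subunits of complexes I, III, IV and V, 9 passed (12.2%, beside 14.9% of all tested genes), 9 higher and 0 lower. This count changed with the library left out, as did the share over all tested genes. With the replicate block 14 passed (18.9%, beside 21.6% of all tested genes). Their median log2 fold change was 0.50, beside -0.00159 over all tested genes, and 63 of 74 were above 0. In complex I 4 of 37 passed, among them NDUFV3 (1.12 ± 0.24), NDUFS3 (1.49 ± 0.33) and NDUFB10 (1.37 ± 0.31). In complex IV 3 of 11 passed, COX5B (1.29 ± 0.20), COX6A1 (0.87 ± 0.19) and COX6B1 (0.83 ± 0.19), and in complex V 2 of 17, ATP5MC3 (1.16 ± 0.20) and ATP5F1A (0.66 ± 0.15). In complex III 0 of 9 passed in edgeR, with 2 of 9 under DESeq2 and 3 of 9 with a replicate block. Over all tested genes 17.7% passed under DESeq2 and 21.6% with the block. When each library was scaled to its mitochondrial total, 1 of the 74 subunits passed (1.35%, beside 6.12% of all tested genes).

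Genes that transcribe and process mitochondrial RNA passed in few cases. Of 27 such genes 3 passed between the lines (11.1%, beside 14.9% of all tested genes). The number changed with the library left out, as did the share over all tested genes. POLRMT, the mitochondrial RNA polymerase, rose from 33.7 and 56.2 CPM in A549 to 128 and 108 in A549/DDP (log2 fold change 1.39 ± 0.29). FASTK, a mitochondrial RNA-binding protein, rose from 42.8 and 43.8 to 110 and 109 CPM (1.34 ± 0.18). GRSF1, an RNA-binding protein of mitochondrial RNA granules, fell from 159 and 157 to 79.6 and 82.9 CPM (-0.96 ± 0.17). Of 7 genes for replication of mitochondrial DNA 0 passed in edgeR, and 2 with DESeq2 (28.6%, beside 17.7% of all genes tested there).

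Among 6 regulators of mitochondrial biogenesis 2 passed (33.3%, beside 14.9% of all tested genes). PPARGC1A, a coactivator that raises transcription of nuclear genes for respiration, had 0.334 and 0.0846 CPM in A549 and 56.2 and 88.8 in A549/DDP (log2 fold change 8.43 ± 0.62, edgeR, adjusted p = 0.0024). ESRRA, a nuclear receptor that acts with it, had 35.9 and 31.7 against 85.1 and 107 CPM (1.51 ± 0.22). Of 78 mitochondrial ribosomal protein genes 4 rose and 3 fell (8.97% passing, beside the same 14.9%), with a median log2 fold change of 0.03. The number that passed changed with the library left out, as did the share over all tested genes. It was 12 with the replicate block (15.4%, beside 21.6% of all tested genes). The 3 with the smallest p were MRPL17 (1.55 ± 0.22) and MRPS2 (1.20 ± 0.23), which were higher, and MRPS31 (-1.84 ± 0.38), which was lower.

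Between the A549 pairs, the direction of the nuclear subunits turned with the scaling. Under TMM, 37 of 74 passed, 36 of them higher in the second pair and 1 lower, beside 13.8% of all tested genes. The number fell without replicate 1 or 2 of the second pair, as did the share over all tested genes. Complex IV had 10 of 11, led by COX6C (log2 fold change 4.06 ± 0.32), COX7A2 (3.27 ± 0.33) and COX6B1 (2.52 ± 0.28). Complex I had 14 of 37, led by NDUFA5 (3.52 ± 0.32) and NDUFA1 (3.52 ± 0.34). With limma on log2(TPM + 1), 12254 of the 13548 genes tested passed in the lower direction. There 10 of 11 complex IV genes were lower instead, with a median of -2.01 beside -3.23 over all tested genes. Relative to the median of all genes, complex IV, I and V therefore lay above it under both scalings, with medians of 2.35, 1.45 and 1.48 beside -0.65 under TMM. These lists hold short genes, with a median length of 583 bases for complex IV and 700 for complex I beside 1881 over the tested genes, and across the 14258 genes the fold change had a Spearman correlation of -0.191 with length. Its part in these calls was not tested.

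Of the 4 m6A-seq libraries, those labelled replicate 2 held peaks in mitochondrial genes and those labelled replicate 1 held none. For A549 the names of the deposited lists exchange these 2 numbers relative to the titles, and the titles were followed. The peak lists give no read counts, so their depth is unknown, and whether their p-value is adjusted is not given. The A549 list of replicate 2 held 7 peaks in 5 of the 15 genes and the A549/DDP list of replicate 2 held 3 peaks in 2 genes. Among genes at or above the CPM of the lowest of the 15 in the inputs of each line, 39.9% and 27.8% had a peak in these lists, and 55.0% and 51.2% in the lists of replicate 1. The lists of replicate 1 were the longer, with 26320 and 27244 peaks against 14576 and 10661.

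Peaks in MT-ND2 and MT-CO2 overlapped between the lists of both lines. In MT-ND2 (4470 to 5511) the A549 list had peaks at 4668 to 4966 and 5114 to 5511, with a p-value given as 0, and the A549/DDP list at 4817 to 5015 and 5114 to 5461, with a p-value of 0.00036. They shared 150 and 348 bases. In MT-CO2 (7586 to 8269) both lists had 1 peak from 7684 to 7976, 98 bases from the start of the gene, with p-values of 0.0035 in A549 and 0.0021 in A549/DDP. Only the A549 list had peaks in MT-CO1 (6401 to 6501, p-value 0.014) and MT-CYB (15342 to 15590, p-value 0.013), and 2 in MT-ND6 on the other strand (14197 to 14387 and 14482 to 14673, p-value 7.1e-06). At p-values of 1e-05 or less, 4 remained in A549, in MT-ND2 and MT-ND6, and 0 in A549/DDP. Neither rRNA gene had a peak. The same 2 lists held 2 peaks each in nuclear copies on chromosome 1: MTATP6P1 (633745 to 634036) and MTCO3P12 (634773 to 634872) in A549, and MTCO3P12 (634525 to 634674 and 634773 to 634872) in A549/DDP.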

How the data were processed

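Per the labels, all libraries were strand-specific (dUTP). The methods state this and poly(A) selection for m6A-seq, and for RIP-seq only an Illumina kit, so the preparation of the second A549 pair is uncertain. The submitters' processing notes name STAR, RSEM and bedtools and the build hg38, with no version. For each of the 6 inputs the authors deposited expected counts (estimates, not normalized) and TPM and FPKM (scaled for effective length and depth). For each m6A-seq library the authors deposited peaks with a p-value. The peak caller, the annotation release and the strand setting are not given in the sources used here. Replicate numbers follow the labels.

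Expected counts were rounded, filtered with filterByExpr, TMM-scaled and tested with edgeR 4.0.16 (R 4.3.3), Benjamini-Hochberg adjusted over all tested genes, with 2 libraries per group. SE is the log2 fold change over the square root of F. Shares used unrounded counts and exact permutation tests. DESeq2 1.42.0 and limma 3.58.1, with a pseudocount of 1 and a mean of at least 1, were alternatives, and so were other scalings and filters, a replicate block and leaving out libraries. The edgeR script was tested on simulated data. Ensembl identifiers gave a symbol for 56948 genes. Peak positions count from 1. All 37 MT- genes were named, the 3 nuclear genes with the smallest adjusted p per list, nuclear copies with a mean of at least 100 counts, and the largest RNA without a tail. Members and lists were chosen with earlier results of these data known. Plots used matplotlib 3.10.9.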

Additional observations from a re-analysis of the deposited data

How the results depend on the processing

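In A549/DDP against A549, 0 of 15 mitochondrial genes passed in edgeR, and 1 passed with DESeq2, without a filter, with at least 10 counts in every library and with the replicate block (MT-RNR2 in each). Leaving out 1 library, which leaves a lone library assumed to vary like the others, gave 0 to 1. With the second A549 pair in place of the first, 15 passed, beside 27.2% of all tested genes. Over all tested genes of the first comparison, 14.9% passed in edgeR, 17.7% with DESeq2 and 17.6% without a filter. With at least 10 counts in every library 28.1% passed, and with the block 21.6%. The deviations of same-numbered libraries correlated at 0.021 for A549/DDP against A549 and 0.0916 between the A549 pairs, so the numbers were not taken to pair the libraries. The replicate block raised the count over all genes from 2437 to 3536 in the first comparison and from 1973 to 2321 in the second, and it changed no other call of a mitochondrial gene.

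The mean mitochondrial share of A549/DDP exceeded that of A549 by 0.00188 percentage points. It was -0.000667 by TPM, and -0.00735 to 0.0111 without 1 library. The rRNA share of mitochondrial counts differed by -7.25 points, by -4.27 by TPM and by -7.55 to -6.95 without 1 library. Between the A549 pairs the mitochondrial share differed by 58.1 points by TPM, by 20.2 without the rRNA genes in the mitochondrial sum, by 44.3 with these left out of the library total as well (added after seeing the data) and by 73.9 to 75.2 without 1 library, and the rRNA share by 44.4 points by TPM and 56.4 to 58.0 without 1 library. Nuclear MTRNR2L copies, at 0 counts, left both rRNA differences as they were.

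Small log2 fold changes of A549/DDP over A549 turned with the setting. MT-ND4 was 0.0022 with DESeq2, 0.047 with upper-quartile scaling, 0.0044 with at least 10 counts, 0.024 and 0.084 with limma on TPM and FPKM, and 0.014 with the block. MT-ND2 was 0.015 with limma on FPKM, and MT-CO1 was -0.11 when scaled to the 13 mRNA genes, a scaling chosen after seeing the data. Without 1 library the ranges were -0.23 to 0.93 for MT-ND6, -0.29 to 0.044 for MT-CO2, -0.23 to 0.079 for MT-ND2, -0.21 to 0.25 for MT-CO1, -0.59 to 0.32 for MT-ND3, -0.23 to 0.23 for MT-ND4, -0.35 to 0.11 for MT-ATP6 and -0.21 to 0.73 for MT-ND4L. With the second A549 pair in place of the first, values above 0 became -10.97 (MT-ND6), -12.19 (MT-CYB), -10.57 (MT-ND5), -11.46 (MT-CO1), -12.68 (MT-ND1), -10.91 (MT-CO3), -17.29 (MT-RNR1) and -9.69 (MT-ND4L). With both pairs they became -10.19, -11.42, -9.79, -10.68, -11.91, -10.13, -16.52 and -8.91 in the same order. In that fit 0 of the 15 mitochondrial genes passed, beside 4.10% of all tested genes.

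Between the A549 pairs, scaling to the mitochondrial total turned 13 mRNAs: MT-ND6 to -2.32, MT-CO2 to -1.57, MT-CYB to -1.17, MT-ND2 to -0.32, MT-ND5 to -2.46, MT-CO1 to -2.13, MT-ND3 to -2.97, MT-ND4 to -1.54, MT-ND1 to -0.63, MT-ATP6 to -1.52, MT-CO3 to -2.43, MT-ND4L to -3.66 and MT-ATP8 to -2.21. Scaling to the 13 mRNA genes left 6 mitochondrial genes passing, beside 99.8% of all tested genes. It turned MT-ND6 to -0.68, MT-ND5 to -0.82, MT-CO1 to -0.49, MT-ND3 to -1.34, MT-CO3 to -0.80, MT-ND4L to -2.02 and MT-ATP8 to -0.57. These signs are relative to the sum that each scaling sets equal in all libraries. That is the mitochondrial sum for the first scaling and the sum of the 13 mRNA genes for the second. Peaks with a p-value of 1e-05 or less numbered 4 instead of 7 in A549 and 0 instead of 3 in A549/DDP, and selection by position on the mitochondrial chromosome gave the same counts as selection by gene. The second pair's 211799 and 256064 counts outside mitochondrial genes limit its comparisons of nuclear genes.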
